A study of Homo sapiens with 8 samples.

Results

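The genes that encode the proteins of the mitochondrial ribosome were examined in 2 human acute myeloid leukaemia cell lines treated with cinobufagin. A gene was taken by its symbol, which had to start with MRPL or MRPS and a digit and to hold neither a hyphen nor a letter P after the first digit. This rule found 76 of the 25593 gene rows, 47 with a large subunit symbol (MRPL) and 29 with a small subunit symbol (MRPS), and left out 3 other MRPL or MRPS symbols. The rule used no measured value.

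Libraries came from 4 groups of 2, which were HL60 with cinobufagin, HL60 untreated, Kasumi-1 with cinobufagin and Kasumi-1 untreated. HL60 cells carry extra copies of MYC. Kasumi-1 cells, which are myeloblasts, carry the RUNX1-RUNX1T1 fusion. Cinobufagin, a steroid of toad venom that inhibits the sodium pump, was given at 100 nM for 24 h, and untreated cells carry a dose of 0 nM in their labels. HL60 medium held 10% fetal bovine serum and Kasumi-1 medium 20%, so line and serum cannot be told apart in any comparison between lines. Whether both libraries of a group stem from separate cultures is not stated, so a p-value reflects library-to-library spread alone, possibly technical.

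The mitochondrial ribosome translates the few messenger RNAs of the mitochondrial genome, all of which encode membrane subunits of the respiratory chain and the ATP synthase. Its RNAs are made inside the organelle, while its proteins are encoded in the nucleus, made in the cytosol and imported. The small subunit reads the messenger RNA, and the large subunit joins the amino acids and passes the chain through an exit tunnel to the inner membrane. Many of the proteins descend from bacterial ribosomal proteins, and others have no bacterial counterpart. In acute myeloid leukaemia, mitochondrial translation is known as a process that leukaemic cells depend on.

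Promoter letters are shown first, because genes on both sides of 0 in HL60 held the same short motif. RefSeq (GRCh38.p14) gave a sequence from 250 bases before to 50 bases after the start for 67 of the 76 members. The motif CCGGAAG, the core of ETS factor sites, stood on either strand in 28 of the 67 (41.8%) and in 10.3% of all 35116 promoters of the same length. The 120 bases before the start follow for 6 members, 5′ to 3′ on the strand of the gene, and capitals mark CCGGAAG or its complement read on the other strand. The stretches lie at chr20:3045932-3046051 (plus strand), chr3:131502972-131503091 (minus), chr3:139343874-139343993 (plus), chr2:27771599-27771718 (plus), chr1:156741089-156741208 (minus) and chr21:34073458-34073577 (plus). MRPS26 and MRPL3 had the largest falls in treated HL60 among the members with the motif and MRPS22 and MRPL33 the largest rises, and were chosen for that. MRPL24 and MRPS6, with the deepest fall and the highest rise of all members, held none of the 4 searched motifs in the stretch shown. MRPL12, MRPL4 and MRPS25 fell further than MRPL3, and MRPL44 rose further than MRPS22. These genes were not among the 28 with CCGGAAG and are not shown. Members without a promoter sequence were not searched.
MRPS26: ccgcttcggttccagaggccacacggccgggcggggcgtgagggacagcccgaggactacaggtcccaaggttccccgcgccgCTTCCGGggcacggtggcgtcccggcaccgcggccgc
MRPL3: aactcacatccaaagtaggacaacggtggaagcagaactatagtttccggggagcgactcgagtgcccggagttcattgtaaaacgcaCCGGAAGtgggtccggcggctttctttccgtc
MRPS22: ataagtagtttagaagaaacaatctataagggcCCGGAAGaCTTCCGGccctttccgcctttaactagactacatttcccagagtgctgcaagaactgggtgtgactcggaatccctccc
MRPL33: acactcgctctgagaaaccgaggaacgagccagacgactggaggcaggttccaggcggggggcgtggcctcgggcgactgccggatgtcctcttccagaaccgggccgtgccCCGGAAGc
MRPL24: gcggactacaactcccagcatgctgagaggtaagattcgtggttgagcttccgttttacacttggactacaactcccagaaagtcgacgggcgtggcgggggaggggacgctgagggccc
MRPS6: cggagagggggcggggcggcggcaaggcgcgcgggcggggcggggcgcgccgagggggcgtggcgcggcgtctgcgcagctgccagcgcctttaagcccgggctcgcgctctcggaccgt

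The other motifs searched on both strands were ATGGCGGC, the core of YY1 sites, CACGTG, the E-box that MYC and related factors bind, and the palindromic core of NRF1 sites. ATGGCGGC was found in 18 of the 67 promoters (26.9%), against 3% of all promoters, with 3 of its matches before the start and 16 at or after it. CACGTG was found in 6 (8.96%), against 7.26% of all promoters, and the NRF1 core in 1 (1.49%), against 1.24%. No matches of different motifs overlapped. Of the 28 members with CCGGAAG, 13 fell and 6 rose in HL60, with a median log2 change of −0.23. The median of the 39 searched members without it was −0.53. The background of all promoters was not limited to expressed genes, while every member reached the level needed for testing. Shares among promoters of tested genes alone were not taken. These are descriptions of letters in a window and were not tested.

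Levels are given as FPKM, fragment counts that the authors divided by transcript length and library size. A member was tested where FPKM reached 1 in at least 2 of the 8 libraries, and all 76 members passed, among 12511 tested genes. Changes are differences of log2(FPKM + 1) from limma, and "rose" or "fell" means an adjusted p under 0.05 over all tested genes. A second fit added the replicate number in the labels as a block, since same-numbered libraries deviated together. It is named for many, but not all, of the calls it changes. Relative depth ran from 0.79 to 1.06 between libraries, read totals are unknown, and replicates of a group correlated with r from 0.989 to 0.995 over the 76 members (log2 scale, across genes). RUNX1T1 went with the line labels, at 16.1 to 20.8 FPKM in Kasumi-1 and listed at 0 in HL60. Other markers did not all do so. MYC, MPO, ELANE and CEBPA were listed for HL60 and RUNX1T1, KIT and CD34 for Kasumi-1. Of these 7, 5 were higher in untreated Kasumi-1 than in untreated HL60 and 2 lower. Of 17 markers of erythroid, lymphoid, epithelial and stromal cells, EPCAM alone passed the filter, at 72.7 to 78.5 FPKM in Kasumi-1. In bulk samples, fewer cells of a type and less RNA per cell cannot be told apart.

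All libraries shared the ends of the range of levels. MRPL33, a small protein with a bacterial counterpart, was the highest member in each of the 8 libraries, at 360 and 300 FPKM in treated HL60, 246 and 179 in untreated HL60, 335 and 268 in treated Kasumi-1, and 230 and 177 in untreated Kasumi-1. MRPL19, another large subunit protein with a bacterial counterpart, was the lowest in each, between 3.38 FPKM in a treated HL60 library and 7.98 in an untreated one. Averaged over libraries, MRPL33 (262 FPKM) was followed by MRPL51 (168), MRPS21 (153), MRPL12 (126) and MRPL23 (123). MRPL19 (5.86), MRPL22 (9.94) and MRPS14 (10.8) stood at the low end. Cinobufagin spread the levels further apart in HL60. The SD of log2 FPKM across the 76 members was 1.23 and 1.20 in the treated libraries and 1.01 and 0.96 in the untreated ones, while the Kasumi-1 values overlapped, at 1.07 and 1.02 with drug and 1.04 and 1.01 without.

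In HL60, cinobufagin lowered most mitochondrial ribosomal protein genes. Of the 76 members, 48 fell (63.2%), 10 rose (13.2%) and 18 passed in neither direction. Over all tested genes, 37.6% fell and 36% rose. The median change of the members was −0.52, against −0.01 for all tested genes. On the log2(FPKM + 1) scale, 19 members fell by more than 1 and 1 rose by more than 1. The same counts were not made over all tested genes. The 2 treated libraries lay below both untreated ones in 55 members and above both in 14, against 44.7% and 42.2% of all tested genes. With each of the 8 libraries left out in turn, 45 of the 48 falls and 7 of the 10 rises passed every time. Rescaling the libraries without short RNAs and repeated symbols gave 45 falls and 18 rises, so that 28.6% of the calls were rises in place of 17.2%. It moved the members' median to −0.35 and that of all tested genes to 0.08. The members' median relative to all tested genes was then −0.43, against −0.51 before.

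**Figure D1:**
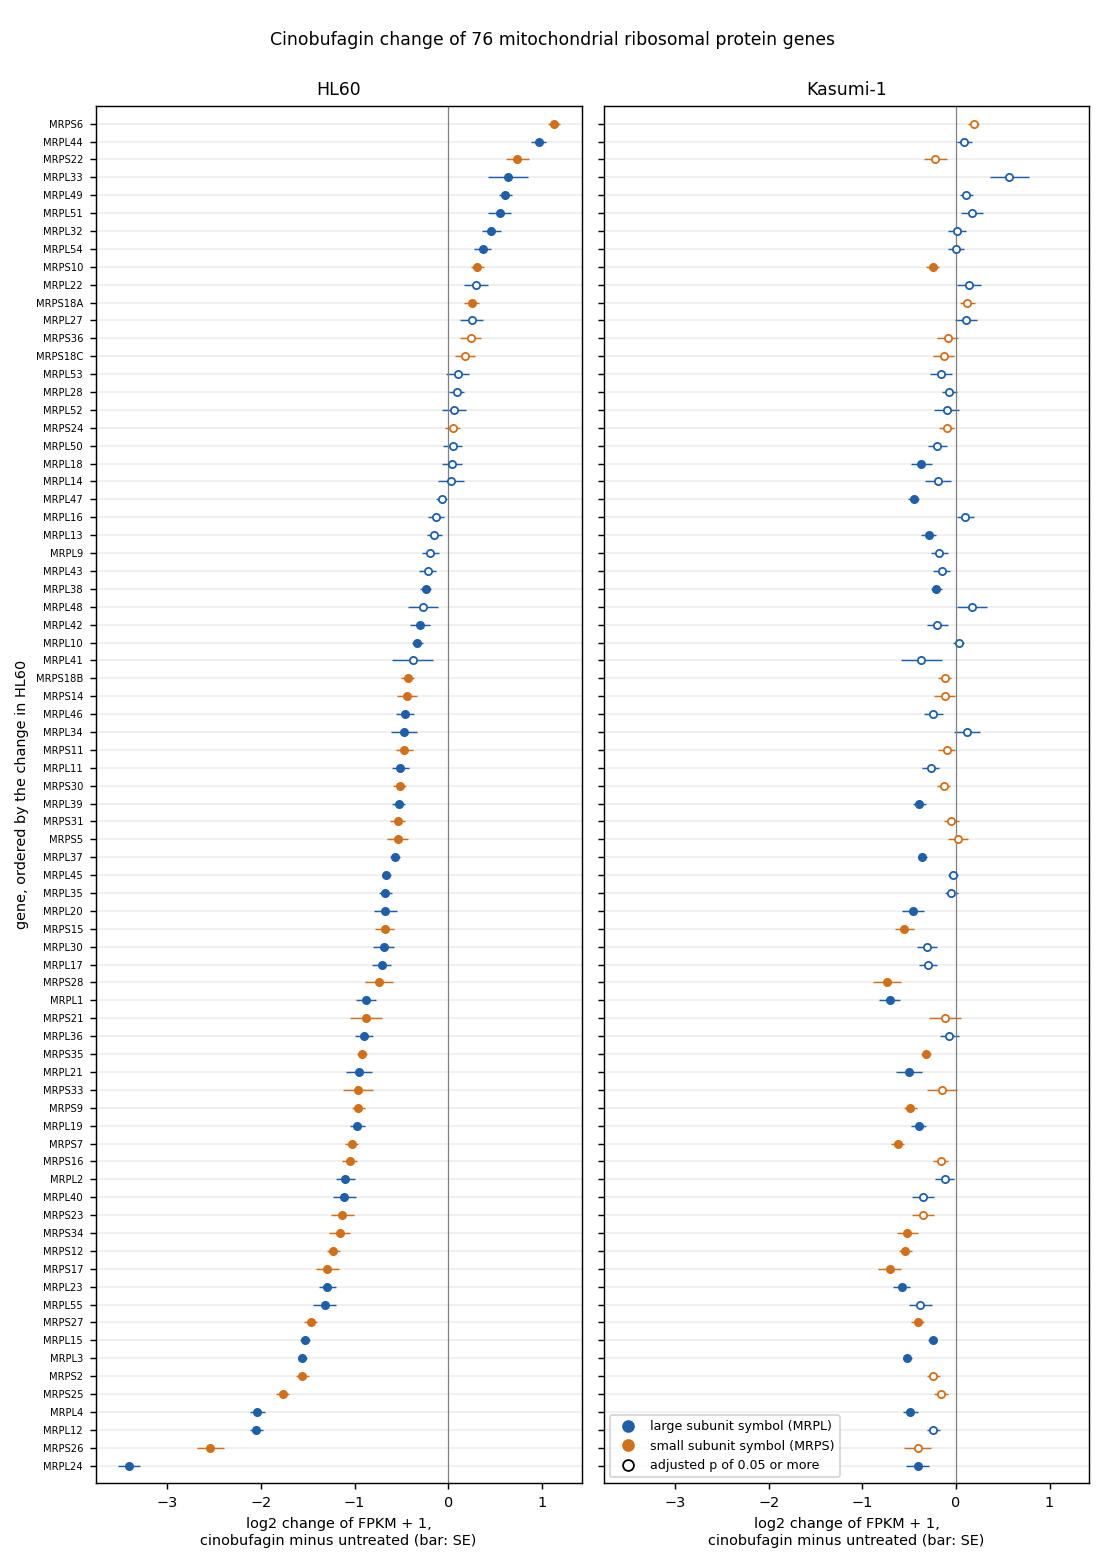
Log2 change of FPKM + 1 (horizontal axis, cinobufagin minus untreated) of the 76 genes in HL60 (left) and Kasumi-1 (right), ordered by the HL60 change; blue is large subunit, orange small subunit, bars are SE and open points have an adjusted p of 0.05 or more. HL60 changes run from −3.41 for MRPL24 to 1.13 for MRPS6, and Kasumi-1 changes from −0.74 to 0.57.

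The deepest fall was that of MRPL24, a protein beside the exit of the polypeptide tunnel. It stood at 6.35 and 4.78 FPKM in treated HL60, against 68 and 68.5 in untreated HL60. Its mean in treated cells was 0.0815 of that in untreated cells, and its log2 change was −3.41 (SE 0.12, adjusted p = 1.22e-06). Its gene overlaps that of HDGF, which stood at 217 and 225 FPKM in treated HL60 and 221 and 220 in untreated HL60. MRPL4, which lines the tunnel, had 17.6 and 15.9 FPKM with drug and 73.9 and 70.3 without, a log2 change of −2.04 (SE 0.08, adjusted p = 1.88e-06). MRPL3, a protein that reaches toward the catalytic centre, had 35.8 and 36.2 FPKM with drug and 106 and 111 without (log2 −1.56, SE 0.05, adjusted p = 7.37e-07). In these genes the groups were far apart compared with the distance between replicates.

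MRPL12 builds the stalk that contacts the translation factors, and is also known to bind the mitochondrial RNA polymerase. It had 34.5 and 32.6 FPKM in treated HL60, against 145 and 139 in untreated HL60 (log2 −2.05, SE 0.07, adjusted p = 1.5e-06). The other proteins listed for the stalk moved less. MRPL10, an anchor of MRPL12, fell by 0.33 on the log2 scale and MRPL11, at the stalk base, fell by 0.51, while MRPL53 had a change of 0.10 that did not pass. Around the tunnel exit, 4 of 6 listed genes fell, among them MRPL23 at −1.29, MRPL17 at −0.71 and MRPL45 at −0.66. MRPL22 (0.30) and MRPL47 (−0.07) did not pass, MRPL22 passing with replicate number as a block (adjusted p = 0.00325). Of 6 genes listed for the central protuberance, a contact with the small subunit, MRPL40 (−1.11), MRPL46 (−0.46) and MRPL38 (−0.24) fell. MRPL18 (0.04), MRPL27 (0.25) and MRPL48 (−0.27) did not pass, though with the block MRPL27 and MRPL48 did (adjusted p = 0.00226 and 0.0054). The lists of these regions may not be complete.

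Among small subunit genes, MRPS26 and MRPS25, which have no bacterial counterpart, fell the furthest. MRPS26 had 9.95 and 9.2 FPKM in treated HL60, against 66 and 55.1 in untreated HL60 (log2 −2.54, SE 0.14, adjusted p = 7.7e-06). MRPS25 had 6.3 and 5.81 FPKM with drug and 24.3 and 21.8 without (log2 −1.77, SE 0.07, adjusted p = 2.48e-06). The groups did not overlap in either gene. MRPS12, a protein of the decoding centre, fell to 23.3 and 22.5 FPKM in treated HL60, against 57.7 and 52.3 in untreated HL60, with a log2 change of −1.23. MRPS2 (−1.56), MRPS27, a pentatricopeptide repeat protein (−1.47), MRPS17 (−1.29), MRPS34 (−1.16) and MRPS7 (−1.03) fell at least 2-fold too. MIF4GD, whose gene overlaps MRPS7, fell as well, by 2.35, and GGA3, which also overlaps it, rose by 0.24; the share of reads that such neighbours trade was not tested. MRPS14 fell by 0.44, a call lost without untreated replicate 1 or treated replicate 2 of HL60 (adjusted p = 0.0664 to 0.0687).

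The 10 genes that rose in HL60 held 6 large and 4 small subunit symbols. MRPS6, with a bacterial counterpart, had 69.1 and 70.5 FPKM in treated HL60, against 32.9 and 29.8 in untreated HL60 (log2 1.13, SE 0.06, adjusted p = 6.16e-06). SLC5A3, an inositol transporter gene that lies within the MRPS6 span, had 4.26 and 4.57 FPKM with drug and 3.41 and 4.19 without, and did not pass. MRPL44, which has a ribonuclease III fold, had 45.5 and 47.5 FPKM with drug and 24.1 and 22.5 without (log2 0.97, SE 0.08, adjusted p = 4.27e-05). In both genes the groups were well apart. MRPS22, a protein of the small subunit with no bacterial counterpart, had 79.4 and 71.5 FPKM with drug and 46.6 and 42.9 without (log2 0.74, SE 0.12, adjusted p = 0.00119). MRPL51, one of the most abundant members, had 295 and 261 FPKM with drug and 204 and 176 without (log2 0.55, SE 0.12, adjusted p = 0.00525). MRPL49 (0.61), MRPL32 (0.46), MRPL54 (0.37) and MRPS10 (0.31) rose too, the MRPL54 call being lost without untreated replicate 2 of HL60 (adjusted p = 0.0515). MRPL33 rose by 0.64 (SE 0.21, adjusted p = 0.0271), and this call was lost without untreated replicate 2 (adjusted p = 0.142) or treated replicate 1 (adjusted p = 0.14) of HL60.

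Human cells have 3 proteins related to bacterial S18, and their genes moved apart in HL60. MRPS18B, in the small subunit, had 40.4 and 36.9 FPKM in treated HL60, against 54 and 50.5 in untreated HL60 (log2 −0.43, SE 0.07, adjusted p = 0.00128). MRPS18A, in the large subunit, had 37.9 and 38.8 FPKM with drug and 34.9 and 29.5 without (log2 0.25, SE 0.08, adjusted p = 0.0267). The rise of MRPS18A was lost without untreated replicate 2 or either treated replicate of HL60 (adjusted p = 0.0738 to 0.112). MRPS18C had 46.9 and 42.2 FPKM with drug and 43.8 and 34.9 without, groups that overlapped, and did not pass (log2 0.18, adjusted p = 0.188). In Kasumi-1 their changes were −0.12, 0.12 and −0.13, in the order MRPS18B, MRPS18A and MRPS18C, and none passed, MRPS18B passing with the block (adjusted p = 0.0286).

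**Figure D2:**
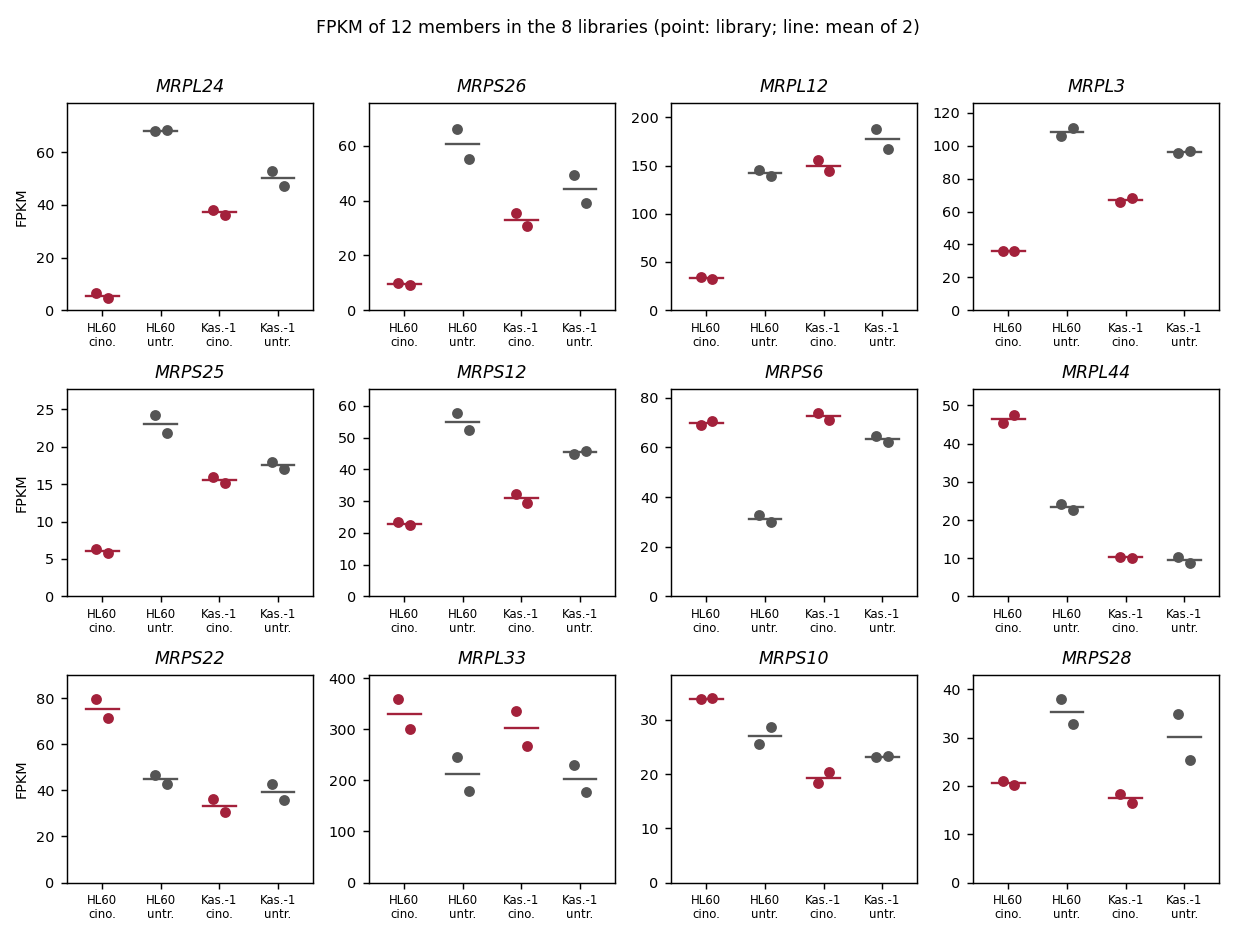
FPKM (vertical axes, from 0) of 12 genes in each library, treated in red left of untreated in grey for HL60 and then Kasumi-1; points are libraries and lines the means of 2. MRPL24 lies at 6.35 and 4.78 in treated HL60 and at 68 and 68.5 in untreated HL60, and MRPS6 lies higher with drug.

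In Kasumi-1 fewer members passed, each of them as a fall. Of the 76 members, 25 fell (32.9%) and 0 rose by limma (2 at an unadjusted p under 0.05), while 16.2% of all tested genes fell and 10.1% rose. With replicate number as a block, 42 members fell (55.3%) and 3 rose, against 23% and 14.9% of all tested genes. The median change was −0.20, against −0.04 for all tested genes, and no member changed 2-fold. The 2 treated libraries lay below both untreated ones in 44 members and above both in 4, against 35.9% and 25.6% of all tested genes. The count of falls was 15 without untreated replicate 1 of Kasumi-1 and 16 without treated replicate 2, and 7 with Kasumi-1 fitted alone, where fewer libraries set the spread. With each library left out in turn, 12 of the 25 passed every time, namely MRPL1, MRPL3, MRPL4, MRPL23, MRPL37, MRPL47, MRPS7, MRPS9, MRPS12, MRPS17, MRPS27 and MRPS35. The MRPL33 value was the highest change, at 0.57 (SE 0.21, adjusted p = 0.0886). With the block MRPL33 passed as a rise (adjusted p = 0.00132), as did MRPL51 (log2 0.17, adjusted p = 0.00718) and MRPS6 (log2 0.19, adjusted p = 0.0217). Of the members with the largest falls in HL60, MRPL12 (−0.24), MRPS26 (−0.41), MRPS25 (−0.16) and MRPS2 (−0.24) passed in Kasumi-1 with the block (adjusted p = 0.00508 to 0.0351) and not without it.

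Of the 6 largest falls in each line, 0 were shared. MRPS28 had 18.4 and 16.5 FPKM in treated Kasumi-1, against 35 and 25.3 in untreated Kasumi-1 (log2 −0.74, SE 0.15, adjusted p = 0.0171). Its groups did not overlap, and its call was lost without treated replicate 1 (adjusted p = 0.0519) or treated replicate 2 (adjusted p = 0.0785) of Kasumi-1. MRPL1, which forms a mobile arm at the tRNA exit in bacteria, had 17.1 and 13.6 FPKM with drug and 27 and 24.3 without (log2 −0.71, SE 0.11, adjusted p = 0.00663). MRPS17 had 42.1 and 37.4 FPKM with drug and 69.3 and 62 without (log2 −0.71, SE 0.12, adjusted p = 0.00847). MRPS7, in the head of the small subunit, had 38.7 and 35.4 FPKM with drug and 60 and 54.7 without (log2 −0.62, SE 0.07, adjusted p = 0.00309). All 4 genes also fell in HL60. MRPL23 (−0.58) and MRPS15 (−0.55) completed the 6 largest falls, and the MRPS15 call was lost without treated replicate 2 of Kasumi-1 (adjusted p = 0.0506). MRPL24 passed narrowly in Kasumi-1, at 38.2 and 36.3 FPKM with drug and 53 and 47.1 without (log2 −0.41, adjusted p = 0.0446). That call was lost on leaving out either untreated HL60 library or any of the 4 Kasumi-1 libraries (adjusted p = 0.0753 to 0.178), and under 5 other settings, among them a pseudocount of 0.1 and median ratio scaling (adjusted p = 0.0507 to 0.0779).

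Set side by side, 21 members fell in both lines, against 10.6% of all tested genes, and 0 rose in both (2 at an unadjusted p under 0.05), against 6.49%. A further 27 passed as falls in HL60 alone and 9 as rises in HL60 alone, against 25% and 27.4% of all tested genes. The falls of MRPL13, MRPL18 and MRPL47 passed in Kasumi-1 alone, as 3.44% of all tested genes did. With replicate number as a block, 36 members fell in both lines and 3 rose in both, and MRPL13 also fell in HL60 (log2 −0.15, adjusted p = 0.00421). More of all tested genes passed in that fit. With the block 39.9% fell in HL60 and 23% in Kasumi-1, against 37.6% and 16.2% without it. The share of all tested genes that passed in both lines was not counted with the block. MRPL47, the counterpart of a bacterial protein at the tunnel exit, had 34.1 and 32 FPKM in treated Kasumi-1, against 47.6 and 43.4 in untreated Kasumi-1 (log2 −0.45, SE 0.06, adjusted p = 0.00432). In HL60 it had 47.5 and 46.4 FPKM with drug and 49.3 and 49.6 without (log2 −0.07, SE 0.06), and the difference between lines passed at −0.37 (SE 0.08, adjusted p = 0.00794). The MRPL13 call was lost without any of the 4 Kasumi-1 libraries (adjusted p = 0.0696 to 0.149) and the MRPL18 call without any of the 8 libraries (adjusted p = 0.0503 to 0.189). MRPS10 alone passed in opposite directions, as 264 tested genes did (2.11%). MRPS10 had 33.8 and 34 FPKM in treated HL60, against 25.5 and 28.6 in untreated HL60, and 18.3 and 20.4 in treated Kasumi-1, against 23.1 and 23.3 in untreated Kasumi-1. Its groups did not overlap in either line, but its Kasumi-1 call (log2 −0.25, adjusted p = 0.0469) was lost without either treated HL60 library, either untreated Kasumi-1 library or treated replicate 1 of Kasumi-1 (adjusted p = 0.0812 to 0.185). It was also lost under 7 other settings, among them a pseudocount of 0.1, no filter and each of the 3 other scalings (adjusted p = 0.0503 to 0.118). With the block MRPS22 passed in opposite directions too, with a Kasumi-1 change of −0.22 (adjusted p = 0.0138). Across the 76 genes the changes in the 2 lines had a Pearson's r of 0.59 and a Spearman's rho of 0.64, against 0.29 and 0.40 over all tested genes; genes of a line share its libraries, and no p is given.

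The difference between the drug changes (Kasumi-1 minus HL60) was tested in the same fit. It was above 0 in 36 members, all of which had fallen in HL60, and below 0 in 8, while 30.1% and 33.1% of all tested genes passed in these directions. With replicate number as a block, 13 lay below 0 (17.1%, against 36.8% of all tested genes). The median difference was 0.31, against −0.03 for all tested genes. The largest differences were those of MRPL24 (3.0, SE 0.17, adjusted p = 2.31e-05), MRPS26 (2.13), MRPL12 (1.80), MRPS25 (1.61), MRPL4 (1.55) and MRPS2 (1.31). MRPS22 (−0.96, SE 0.17, adjusted p = 0.0026), MRPS6 (−0.94), MRPL44 (−0.88), MRPS10 (−0.57), MRPL49 (−0.50) and MRPL32 (−0.45) led the other direction. The difference in MRPL32 was lost without untreated replicate 2 or treated replicate 1 of HL60, or without untreated replicate 1 or treated replicate 2 of Kasumi-1 (adjusted p = 0.0859 to 0.0935). With each library left out in turn, 27 of the 36 and 6 of the 8 passed every time. For 7 of the 21 genes that fell in both lines the difference did not pass, MRPS28 (0.01, SE 0.22) and MRPL1 (0.16, SE 0.15) among them, and with the block 1 of these 7 did. Rescaling without short RNAs and repeated symbols gave 24 members above 0 and 20 below, so that 54.5% of the calls were above 0 in place of 81.8%. This scaling moved the median of all tested genes to −0.19 and that of the members to 0.11. The members' median relative to that of all tested genes was 0.30, against 0.34 before.

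**Figure D3:**
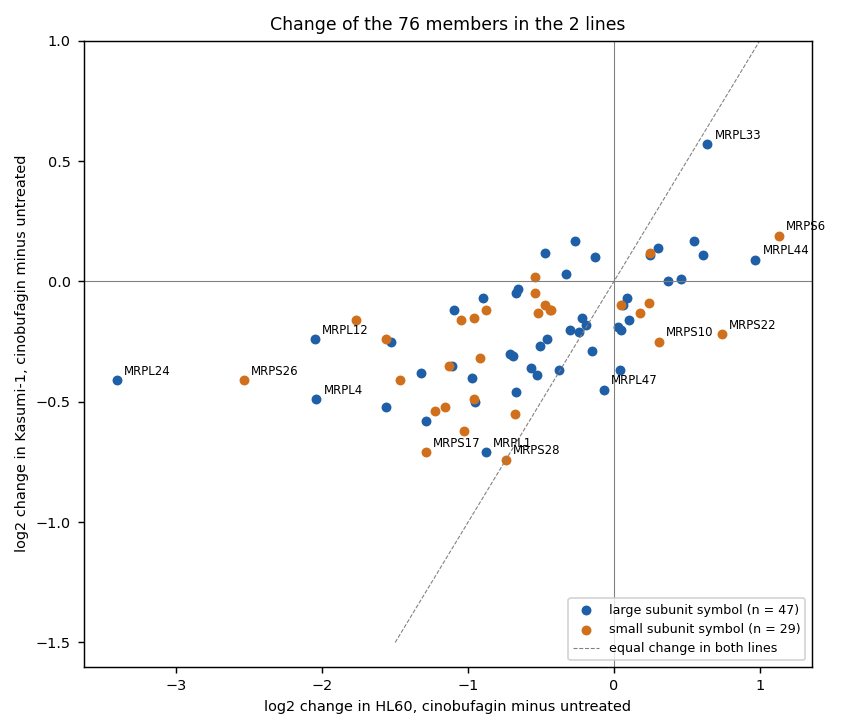
Log2 change in HL60 (horizontal) and in Kasumi-1 (vertical), cinobufagin minus untreated, of the 76 genes; blue is large subunit (n = 47), orange small subunit (n = 29), and the dashed line marks equal change. MRPL24 and MRPS26 lie far left, at −3.41 and −2.54 in HL60 but −0.41 in Kasumi-1 each, and MRPS28 lies on the line.

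Large and small subunit genes were then set apart. In HL60, 26 of 47 large subunit genes fell (55.3%) and 6 rose, with a median change of −0.38. Of 29 small subunit genes, 22 fell (75.9%) and 4 rose, with a median of −0.74. In Kasumi-1 the subunits had similar values, with 15 falls (31.9%) and a median of −0.20 in the large subunit and 10 falls (34.5%) and a median of −0.16 in the small one. With replicate number as a block, 25 large (53.2%) and 17 small (58.6%) subunit genes fell in Kasumi-1, against 23% of all tested genes. In HL60 the block gave 32 large (68.1%) and 22 small (75.9%) falls, against 39.9% of all tested genes. The shares that fell in HL60 were thus closer together with the block than without it. Symbols do not always match the subunit, since MRPS18A and MRPS30 sit in the large subunit of the human mitochondrial ribosome and MRPS36 is now placed in the 2-oxoglutarate dehydrogenase complex. With that assignment, the HL60 medians were −0.38 over 49 large and −0.90 over 26 small subunit genes. The Kasumi-1 medians then were −0.20 and −0.23, so the order of the subunits turned round there. Genes of a subunit are not replicates, and the difference between subunits was not tested.

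Summed levels showed the same order in HL60. Large subunit genes summed to 2386 and 2205 FPKM in treated HL60, against 2884 and 2626 in untreated HL60. Small subunit genes summed to 994 and 923 FPKM with drug and 1526 and 1416 without. The ratio of the sums, large over small, was 2.4 and 2.39 in treated HL60, against 1.89 and 1.85 in untreated HL60, with no overlap between groups. In Kasumi-1 the ratio was 2.02 and 1.97 with drug and 1.87 and 1.83 without, again with no overlap but closer together. The ratio of the median levels, which a few high genes do not set, was 1.34 and 1.43 against 1.13 and 1.14 in HL60 and 1.02 and 1.08 against 0.963 and 1 in Kasumi-1, treated before untreated. With 2 libraries in each group, an exact two-sided permutation test has 0.33 as its smallest p, so none is given. With short RNAs and repeated symbols left out of the total, the 76 genes held 0.634% and 0.594% of the summed FPKM of tested genes in treated HL60, against 0.713% and 0.688% in untreated HL60. In Kasumi-1 they held 0.568% and 0.541% with drug and 0.655% and 0.626% without. The share of the large subunit genes alone overlapped in HL60, at 0.448% and 0.418% with drug and 0.466% and 0.447% without. That of the small subunit genes did not, at 0.187% and 0.175% with drug and 0.247% and 0.241% without.

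**Figure D4:**
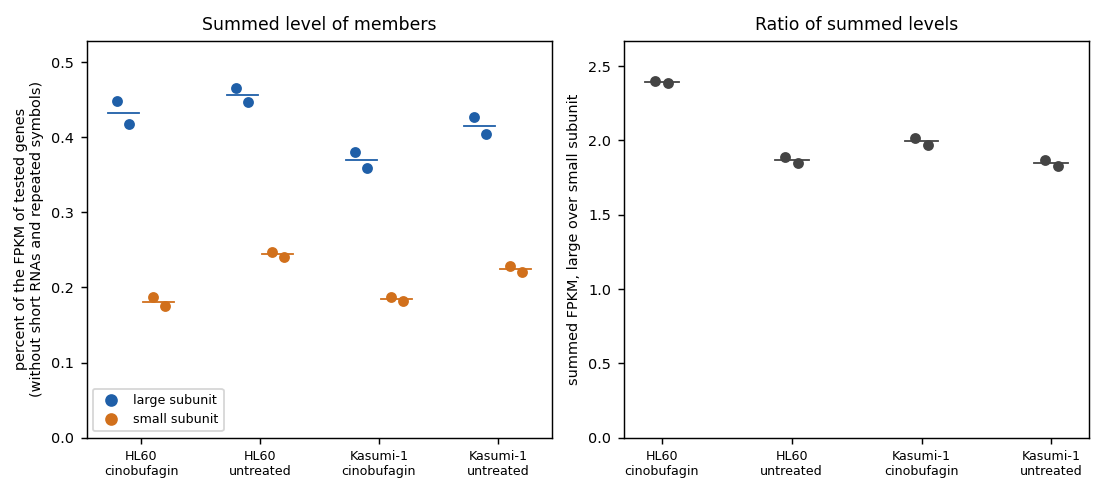
Left, percent of the FPKM of tested genes (short RNAs and repeated symbols left out) held by large (blue) and small (orange) subunit genes; right, ratio of summed FPKM, large over small. Points are libraries and lines means of 2; the ratio is 2.4 and 2.39 in treated HL60 and 1.89 and 1.85 in untreated HL60.

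Proteins with a bacterial counterpart were also set beside those with none. MRPS18A and MRPS18B, relatives of S18 that sit elsewhere in the ribosome, were counted with the second group and MRPS18C with the first. Of 46 genes with one, 31 fell (67.4%) and 4 rose in HL60 (median −0.68), and 19 fell in Kasumi-1 (41.3%, median −0.25). Of the 30 others, 17 fell (56.7%) and 6 rose in HL60 (median −0.40), and 6 fell in Kasumi-1 (20%, median −0.16). Over all tested genes, 37.6% fell in HL60 and 16.2% in Kasumi-1. With the block the groups were close in Kasumi-1, with 26 falls (56.5%) and 16 falls (53.3%), against 23% of all tested genes. In HL60 the block gave 34 falls (73.9%) and 20 falls (66.7%), against 39.9% of all tested genes. Both groups held genes near the extremes, MRPL24 and MRPS6 with a counterpart and MRPS26 and MRPL44 without. This difference was not tested.

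Levels without drug were compared next. In untreated Kasumi-1 compared with untreated HL60, 15 members were higher (19.7%) and 35 lower (46.1%), against 35.9% and 33.8% of all tested genes, with a median difference of −0.21. In either direction 65.8% of the members passed, close to the 69.7% of all tested genes. MRPL41, a protein of the large subunit, had 20.1 and 12.2 FPKM in untreated Kasumi-1, against 68.3 and 61.3 in untreated HL60 (log2 difference −1.98, SE 0.22, adjusted p = 0.000222). MRPS34 had 50.7 and 47.7 FPKM in Kasumi-1, against 178 and 164 in HL60 (log2 difference −1.78, adjusted p = 1.18e-05). MRPS31 (−1.66) and MRPL44 (−1.20) were lower in Kasumi-1 as well. In the other direction, MRPL43 had 84.6 and 71.9 FPKM in Kasumi-1, against 34.1 and 32.5 in HL60 (log2 difference 1.20, SE 0.09, adjusted p = 3.8e-05). MRPS27 (1.15), MRPS36 (1.04) and MRPS6 (0.99) were higher in Kasumi-1. MRPS6 in treated HL60 (69.1 and 70.5 FPKM) stood above its level in untreated Kasumi-1 (64.5 and 62 FPKM). With each library left out in turn, 11 of the 15 higher and 21 of the 35 lower members passed every time. The count of lower members was 23 without untreated replicate 1 of HL60, and 23 without untreated replicate 2 of Kasumi-1.

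Genes of the mitochondrial ribosome that carry other symbols were set beside the members. The list also held OXA1L, an inner membrane insertase and not a ribosomal protein, which did not pass in HL60 (log2 −0.03, adjusted p = 0.69). Of the 8 genes of the list, 5 fell (62.5%) and 0 rose in HL60 by limma, against 37.6% and 36% of all tested genes. The counts were the same at an unadjusted p under 0.05, and the median was −0.45. DAP3, a GTP-binding protein of the small subunit, had 35.1 and 30.9 FPKM in treated HL60, against 69.4 and 65.5 in untreated HL60 (log2 −1.01). GADD45GIP1 (−0.81) and ICT1, a peptidyl-tRNA hydrolase of the large subunit (−0.75), also fell. In Kasumi-1, AURKAIP1 alone of the 8 passed, at −0.18 (12.5%, against 16.2% of all tested genes that fell). With the block 4 fell (50%, against 23% of all tested genes), DAP3, GADD45GIP1 and ICT1 among them (adjusted p = 0.00925 to 0.0183). In HL60 the block gave 6 falls (75%) and 1 rise (12.5%), against 39.9% and 38.3% of all tested genes.

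Factors that act with the ribosome follow, beside 37.6% of all tested genes that fell and 36% that rose in HL60, and 16.2% and 10.1% in Kasumi-1. Of 16 translation factors, 13 fell (81.2%) and 2 rose in HL60 (median −0.78), and 6 fell in Kasumi-1 (37.5%). METAP1D, a methionine aminopeptidase, had 0.439 and 0.363 FPKM in treated HL60, against 5.76 and 6.38 in untreated HL60 (log2 −2.33), and fell by 0.74 in Kasumi-1. HEMK1, which methylates release factors (−1.54), and MTIF2, the initiation factor that brings the first tRNA (−1.40), fell in HL60, and GUF1 (−0.41) and TACO1 (−0.33) fell in Kasumi-1. Of 26 assembly factors with a row, 19 fell (73.1%) and 2 rose in HL60 (median −0.52), and 10 fell (38.5%) and 1 rose in Kasumi-1. With replicate number as a block, 14 of these 26 fell in Kasumi-1 (53.8%), against 23% of all tested genes. MRM1, a ribosomal RNA methyltransferase, had 0.86 and 0.46 FPKM in treated HL60, against 14.7 and 13.1 in untreated HL60 (log2 −3.17). RBFA, a small subunit assembly factor (−2.50), and RPUSD3, a pseudouridine synthase (−1.93), fell in HL60 too. YBEY, an endoribonuclease, went the other way, at 19.7 and 19.1 FPKM with drug and 6.77 and 6.03 without in HL60 (log2 1.46), and rose by 0.63 in Kasumi-1. A list of 22 genes covered mitochondrial transcription and RNA handling, and also DNA replication with POLG, POLG2, C10orf2 and SSBP1. Of these 22, 17 fell (77.3%) and 1 rose in HL60 (median −0.72). In Kasumi-1, 8 fell (36.4%), or 13 with replicate number as a block (59.1%, against 23% of all tested genes). POLG2 (−1.34), a subunit of the mitochondrial DNA polymerase, SUPV3L1 (−1.30), an RNA helicase, and PTCD2 (−1.12) fell most in HL60, and SLIRP (−0.82), a partner of LRPPRC, fell most in Kasumi-1.

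Cytosolic ribosomal protein genes gave a different picture in the 2 lines. Of 79, 68 fell (86.1%) and 0 rose in HL60 (median −0.65), against 37.6% and 36% of all tested genes. In Kasumi-1, 0 passed and the median was 0.08, while 16.2% of all tested genes fell and 10.1% rose. At an unadjusted p under 0.05, limma gave 69 falls and 0 rises in HL60 and 0 of either in Kasumi-1. With replicate number as a block, 76 fell in HL60 (96.2%, against 39.9% of all tested genes) and 0 passed in Kasumi-1. The members' changes in HL60 were spread more widely, with an SD of 0.80 across 76 genes, against 0.40 across the 79 cytosolic ones. Of 76 nuclear genes of the respiratory chain, which the mitochondrial ribosome's own products join, 44 fell (57.9%) and 7 rose (9.21%) in HL60 (median −0.35). In Kasumi-1, 7 fell (9.21%) and 1 rose (1.32%), with a median of −0.09, so falls were fewer there than the 16.2% of all tested genes. With the block, 52 fell (68.4%) and 11 rose (14.5%) in HL60, against 39.9% and 38.3% of all tested genes. In Kasumi-1, 24 then fell (31.6%) and 8 rose (10.5%), against 23% and 14.9%. Differences between these lists were not tested. MYC, whose product is known to drive ribosome genes, stood at 30.3 and 29.2 FPKM in treated HL60, against 786 and 749 in untreated HL60, and at 199 and 202 FPKM in treated Kasumi-1, against 308 and 310 in untreated Kasumi-1; its part in these changes was not tested.

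**Figure D5:**
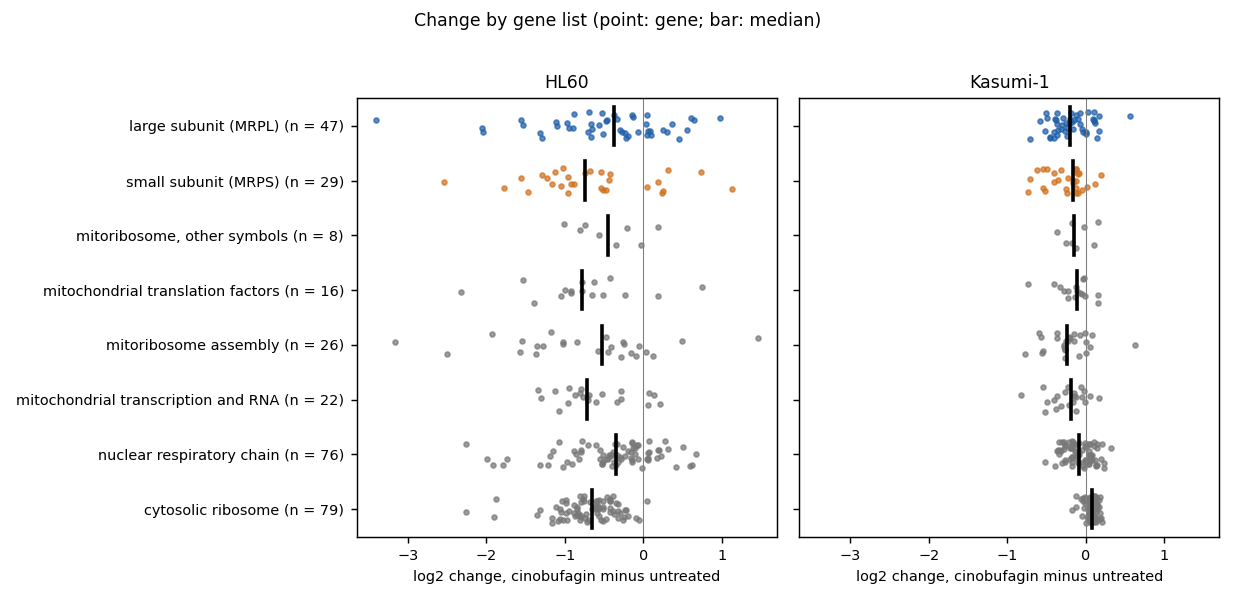
Log2 change (horizontal axes, cinobufagin minus untreated) by gene list in HL60 (left) and Kasumi-1 (right); points are genes and bars medians. In HL60 the medians are −0.38 for the large and −0.74 for the small subunit, and the cytosolic ribosome is at −0.65 in HL60 but 0.08 in Kasumi-1.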

How the data were processed

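The authors deposited 1 table of FPKM values with 8 library columns and 25593 rows; 0 columns were left out. Per the submitters' processing notes, bcl2fastq 2.20.0, HISAT2 2.1.0 and Cufflinks 2.2.1 were used with build hg19. Per the labels' protocols, the library kit keeps strand. Which annotation, strand setting and filters were applied is not given in the sources used here. Members that overlap another gene (32 of 76 by RefSeq spans) may share reads with it.

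From the deposited FPKM, log2(FPKM + 1) was tested with limma 3.58.1 in R 4.3.3. The model had 1 mean per group over 8 libraries (4 residual degrees of freedom), an intensity trend and Benjamini-Hochberg adjustment over 12511 genes that reached FPKM 1 in 2 or more libraries, and was tested on simulated data. A pseudocount of 1 understates changes of low genes. Counts and read totals were not at hand, so no counting interval could be set and depth is known only relative to another library.

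The labels number the replicates 1 and 2 in each group and do not say what the numbers stand for. Same-numbered libraries deviated together in each of the 6 pairs of groups (r = 0.125 to 0.331 over tested genes, 0.272 to 0.434 without short RNAs and repeated symbols). The numbers were therefore taken as pairing the libraries from the data. Fits with the number as a block are given for many, but not all, of the calls and counts they change.

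Members, comparison lists and alternatives were chosen with earlier results of these data known. Named members are the 6 per direction with the largest drug change in each line and the 6 with the largest difference between lines, among those passing. The 4 members each way that differed most between untreated lines, the 5 highest and 3 lowest members, and MRPL11, MRPL12, MRPL24, MRPS12, MRPS18A, MRPS30 and MRPS36 were added, with up to 3 genes per other list and line. Other named genes complete a group and were chosen after their values were seen. RefSeq (GRCh38.p14) differs from the authors' build and served only for names, overlaps and promoter sequences. Alternatives were other pseudocounts, filters and scalings, a block for replicate number, fits of 1 line, no trend, each library left out, and the reassignment of 3 genes between subunits.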

Additional observations from a re-analysis of the deposited data

Results flagged for a closer look

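Some of the 35 named members were named because their drug change differed between the lines, so a count of such members is partly set by that choice. In either direction, 57.9% of all 76 members and 63.1% of all tested genes passed limma's interaction test. Of the 35 named members 23 passed, and the values below are the difference on the log2 scale, Kasumi-1 minus HL60. It was above 0 in 17, which fell further in HL60. In the large subunit these were MRPL24 (3.0), MRPL12 (1.80), MRPL4 (1.55), MRPL3 (1.05), MRPL23 (0.71) and MRPL19 (0.57). In the small subunit they were MRPS26 (2.13), MRPS25 (1.61), MRPS2 (1.31), MRPS27 (1.06), MRPS21 (0.75), MRPS12 (0.68), MRPS34 (0.65), MRPS17 (0.58), MRPS31 (0.49), MRPS7 (0.41) and MRPS30 (0.39). It was below 0 in 6, which rose in HL60, namely MRPS22 (−0.96), MRPS6 (−0.94), MRPL44 (−0.88), MRPS10 (−0.57), MRPL49 (−0.50) and MRPL32 (−0.45). The differences of MRPL19, MRPS17, MRPS30, MRPS31 and MRPS7 were lost when libraries were rescaled without short RNAs and repeated symbols (adjusted p = 0.0524 to 0.318). The difference in MRPS21 was lost without untreated replicate 1 or treated replicate 2 of HL60, or without untreated replicate 2 or treated replicate 1 of Kasumi-1 (adjusted p = 0.0733 to 0.107). The difference in MRPS17 was lost without untreated replicate 1 of HL60, untreated replicate 2 or treated replicate 1 of Kasumi-1 (adjusted p = 0.0666 to 0.0678).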

How the results depend on the processing

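Rescaling without short RNAs and repeated symbols gave 18 members that rose in HL60 in place of 10, and 20 below 0 in the difference between lines in place of 8. Quantile normalization gave 5 below 0 and 1 rise in Kasumi-1, median ratio scaling also gave 1 rise, and Kasumi-1 fitted alone gave 7 falls in place of 25. With replicate number as a block, 12 rose and 54 fell in HL60, 3 rose and 42 fell in Kasumi-1, 42 lay above 0 and 13 below 0 in the difference, and 20 were higher and 43 lower in untreated Kasumi-1. Over all tested genes the block gave 38.3% rises and 39.9% falls in HL60, and 14.9% and 23% in Kasumi-1. In the difference 33.2% of all tested genes lay above 0 and 36.8% below. In untreated Kasumi-1 39% of all tested genes were higher and 37.3% lower. Over these 4 comparisons the block ended 0 of the members' calls and added 52. Calls ended or added among all tested genes were not counted. Reassigning 3 genes moved the median of large minus small from 0.36 to 0.52 in HL60 and from −0.04 to 0.04 in Kasumi-1, a change of sign that leaving out treated replicate 2 of Kasumi-1 also gave (0.01). With each library left out in turn, counts ran from 7 to 12 rises and 45 to 50 falls in HL60, 0 to 1 rises and 15 to 21 falls in Kasumi-1, 27 to 37 above 0 and 6 to 11 below 0 in the difference, and 12 to 15 higher and 23 to 35 lower in untreated Kasumi-1; large minus small ran from 0.31 to 0.39 in HL60 and from −0.04 to 0.01 in Kasumi-1. The cause was not tested. For named members no change reversed sign; 1047 of 1120 values with a library left out and 1125 of 1190 under other settings kept direction and side of the threshold. Depth is unknown beyond its relative value, so no detection limit was set.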

Other observations

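In 42 of the 76 members (55.3%) the library numbered 1 was the higher of the pair in all 4 groups, against 2019 of the 12511 tested genes (16.1%). The direction of change did not rest on this order. Taken within number 1 and within number 2, the median change of the members was −0.53 and −0.55 in HL60 and −0.21 and −0.21 in Kasumi-1. The sign was the same within both numbers for 72 of 76 members in HL60 and for 69 of 76 in Kasumi-1. The labels do not say what the numbers stand for.

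Of 21 genes with a row whose span overlaps that of a member, several moved differently from it in HL60. NR2C2, an orphan nuclear receptor gene that overlaps MRPS25, rose by 0.71 while MRPS25 fell by 1.77. ABHD8, which overlaps MRPL34, had 5.79 and 5.37 FPKM in treated HL60, against 0.948 and 0.922 in untreated HL60, a log2 change of 1.76, while MRPL34 fell by 0.47, a call lost without untreated replicate 1 or either treated replicate of HL60 (adjusted p = 0.0676 to 0.1). ACTL6A, a chromatin remodelling subunit gene that overlaps MRPL47, fell by 0.72 while MRPL47 had a change of −0.07 that did not pass. SYVN1, which overlaps MRPL49, rose by 0.44 and MRPL49 by 0.61. These neighbours were chosen by position and their values were read after the members' values were known.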
